A study of Mus musculus with 18 samples.

Results

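The 8 genes described here make up the core of the retinoic acid pathway as it can be read from RNA: the receptors Rarb and Rarg, the cellular binding proteins Crabp1 and Crabp2, the synthetic enzyme Aldh1a2, the retinaldehyde reductase Dhrs3, and the degrading enzymes Cyp26a1 and Cyp26b1. They were named by symbol, not by any measured value, although earlier results of these data were known when they were chosen. All 8 were found among the 25239 genes of the count table. All 8 also passed the filter on low counts that left 16582 genes for testing.

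Retinoic acid is made from retinol by oxidation through retinaldehyde, and ALDH1A2 carries out the last step in much of the early embryo. Inside the cell it is carried by CRABP proteins and binds RAR receptors, which act on DNA as partners of RXR receptors, and CYP26 enzymes break it down. Several genes of the pathway, Rarb, Cyp26a1 and Dhrs3 among them, are themselves well known targets of the receptors. The pathway is known for patterning the hindbrain and for the entry of germ cells into meiosis.

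The RNA came from mouse E14Tg2a embryonic stem cells and from a triple knockout (TKO) derivative in which the open reading frames of Tet1, Tet2 and Tet3 were cut out with CRISPR/Cas9. TET enzymes oxidise 5-methylcytosine in DNA. Both lines were converted to epiblast-like cells (EpiLCs) with Activin A and Fgf, and then aggregated in serum replacement medium for 2 or 6 days, the protocol used to make primordial germ cell-like cells. Aggregates were grown with or without the cytokines BMP4, BMP8a, SCF, LIF and EGF. No label or protocol mentions added retinoic acid. The EpiLC medium also held B27 supplement, and the protocol does not give the retinoid content of any medium.

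The 9 conditions, each with 2 libraries, were WT EpiLC, WT day 2 without cytokines, WT day 6 without cytokines, WT day 6 with cytokines, TKO EpiLC, TKO day 2 without cytokines, TKO day 2 with cytokines, TKO day 6 without cytokines and TKO day 6 with cytokines. WT aggregates at day 2 with cytokines were not analysed here, so the effect of cytokines at day 2 could be followed in TKO cells only. The labels describe all the day 6 material as aggregates, whereas the study's legend gives the WT cells grown with cytokines as SSEA1- and CD61-positive cells collected by sorting. By that legend the other aggregates were used whole. In WT at day 6, the sort and the cytokines cannot be told apart. The study used a single TKO clone for most of its work. The labels number the 2 libraries of a condition, and the study's legends call the RNA-seq data points biological replicates. The p-values of the main fit rest on a spread between such replicates that was estimated over all 9 conditions together.

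Total counts ran from 11286050 to 41257861 per library, of which the ribosomal RNA gene Rn45s took between 16.2% and 47.6%. Tet3 was lower in TKO than in WT cells in 4 of 4 matched comparisons, with log2 fold changes from -4.23 to -1.73. Tet1 and Tet2 were each lower in 2 of 4, and Tet1 was at 1568 normalised counts in TKO day 2 without cytokines against 1891 in the matched WT. These gene counts include any part of the transcript outside the deletion, so they are an incomplete check of the genotype. The summed normalised counts of 4 neural markers (Sox1, Pax6, Neurog2 and Tubb3) were 477 to 522 in WT EpiLC, 3526 to 4797 in WT day 2 without cytokines and 20871 to 22756 in WT day 6 without cytokines. They were 244 to 2079 in the TKO libraries and 396 to 464 in WT day 6 with cytokines. Neurog2 was at 0 in 6 of the TKO libraries and in 1 library of WT day 6 with cytokines. The sum of 5 germ cell markers (Prdm1, Prdm14, Tfap2c, Nanos3 and Dppa3) was 91.7 to 145 in WT libraries without cytokines and 6666 to 8349 in WT day 6 with cytokines. In TKO cells it went from 141 to 270 in EpiLC to 2769 to 3670 in aggregates, with Dppa3 at 0 in 1 library of WT day 6 without cytokines. Markers of the starting EpiLC state (4 genes) summed to 52892 to 57810 in WT EpiLC and 24303 to 25502 in TKO EpiLC and to 743 to 21971 in aggregates. The 4 naive pluripotency markers summed to 9293 to 23707 in TKO aggregates and in WT day 6 with cytokines against 77.6 to 2307 elsewhere. Mesoderm markers (5 genes) summed to 61.6 to 1104 and endoderm markers (4 genes) to 9.26 to 538, with Mesp1 at 0 in 6 libraries, Foxa2 in 3 and Gata4 and Gata6 in 1. The highest mesoderm sum was in TKO day 2 with cytokines replicate 1, against 150.2 in replicate 2. The Rn45s share was 16.2% to 31.3% in aggregates without cytokines and 31.7% to 47.6% in all other libraries. In whole aggregates, a difference in the number of cells of one type and a difference in RNA per cell cannot be told apart, and the part of these marker and Rn45s differences in the results on the 8 genes was not tested.

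The promoters of Rarb and Cyp26a1 are shown because they share a sequence feature that the other members' windows lacked. RefSeq promoter windows on GRCm38.p6, from 250 bases before to 50 bases after the start site, were given for 7 of the 8 members in 10 windows, with none for Crabp2. They were searched on both strands for direct repeats of the nuclear receptor hexamer AGGTCA, which was also accepted when spelled AGTTCA, when spelled GGGTCA and when spelled GGTTCA, with a spacer of 1, 2 or 5 bases, called DR1, DR2 and DR5. A DR5 was found in the Rarb and the Cyp26a1 window and no repeat in the other 8 windows. Of all 32851 windows in the table, 0.0974% held a DR5, 0.268% a DR2 and 0.222% a DR1. The Rarb repeat lay 53 to 37 bases before the start site, on the strand of the gene, at chr14:16575513-16575529. The Cyp26a1 repeat lay 32 to 16 bases before the start site, on the opposite strand, at chr19:37697776-37697792. The Cyp26b1 window is given beside them as the window of the other degrading enzyme, whose RNA followed a different course. Each window reads 5′ to 3′ along the gene, and capitals mark the 2 hexamers of a DR5, which in Cyp26a1 appear as their reverse complements. These letters describe the reference sequence and say nothing of binding in these cells.
Rarb, chr14:16575427-16575726, minus strand: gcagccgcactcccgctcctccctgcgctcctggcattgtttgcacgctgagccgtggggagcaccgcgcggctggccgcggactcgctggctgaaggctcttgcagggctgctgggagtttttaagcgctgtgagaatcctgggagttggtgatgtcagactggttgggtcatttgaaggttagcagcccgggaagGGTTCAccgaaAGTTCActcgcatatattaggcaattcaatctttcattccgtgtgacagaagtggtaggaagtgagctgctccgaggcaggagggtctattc
Cyp26a1, chr19:37697558-37697857, plus strand: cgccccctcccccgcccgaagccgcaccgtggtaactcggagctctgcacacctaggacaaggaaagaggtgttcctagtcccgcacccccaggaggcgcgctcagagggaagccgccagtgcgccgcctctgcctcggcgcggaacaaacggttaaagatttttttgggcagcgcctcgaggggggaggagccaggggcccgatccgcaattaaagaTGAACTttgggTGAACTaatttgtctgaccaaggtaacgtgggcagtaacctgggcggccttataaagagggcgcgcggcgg
Cyp26b1, chr6:84593761-84594060, minus strand: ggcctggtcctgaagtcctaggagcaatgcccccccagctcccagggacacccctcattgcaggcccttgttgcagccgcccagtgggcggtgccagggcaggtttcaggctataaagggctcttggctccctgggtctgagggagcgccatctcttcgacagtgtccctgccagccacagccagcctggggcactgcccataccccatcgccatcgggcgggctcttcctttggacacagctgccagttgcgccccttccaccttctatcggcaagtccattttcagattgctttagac

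**Figure D1:**
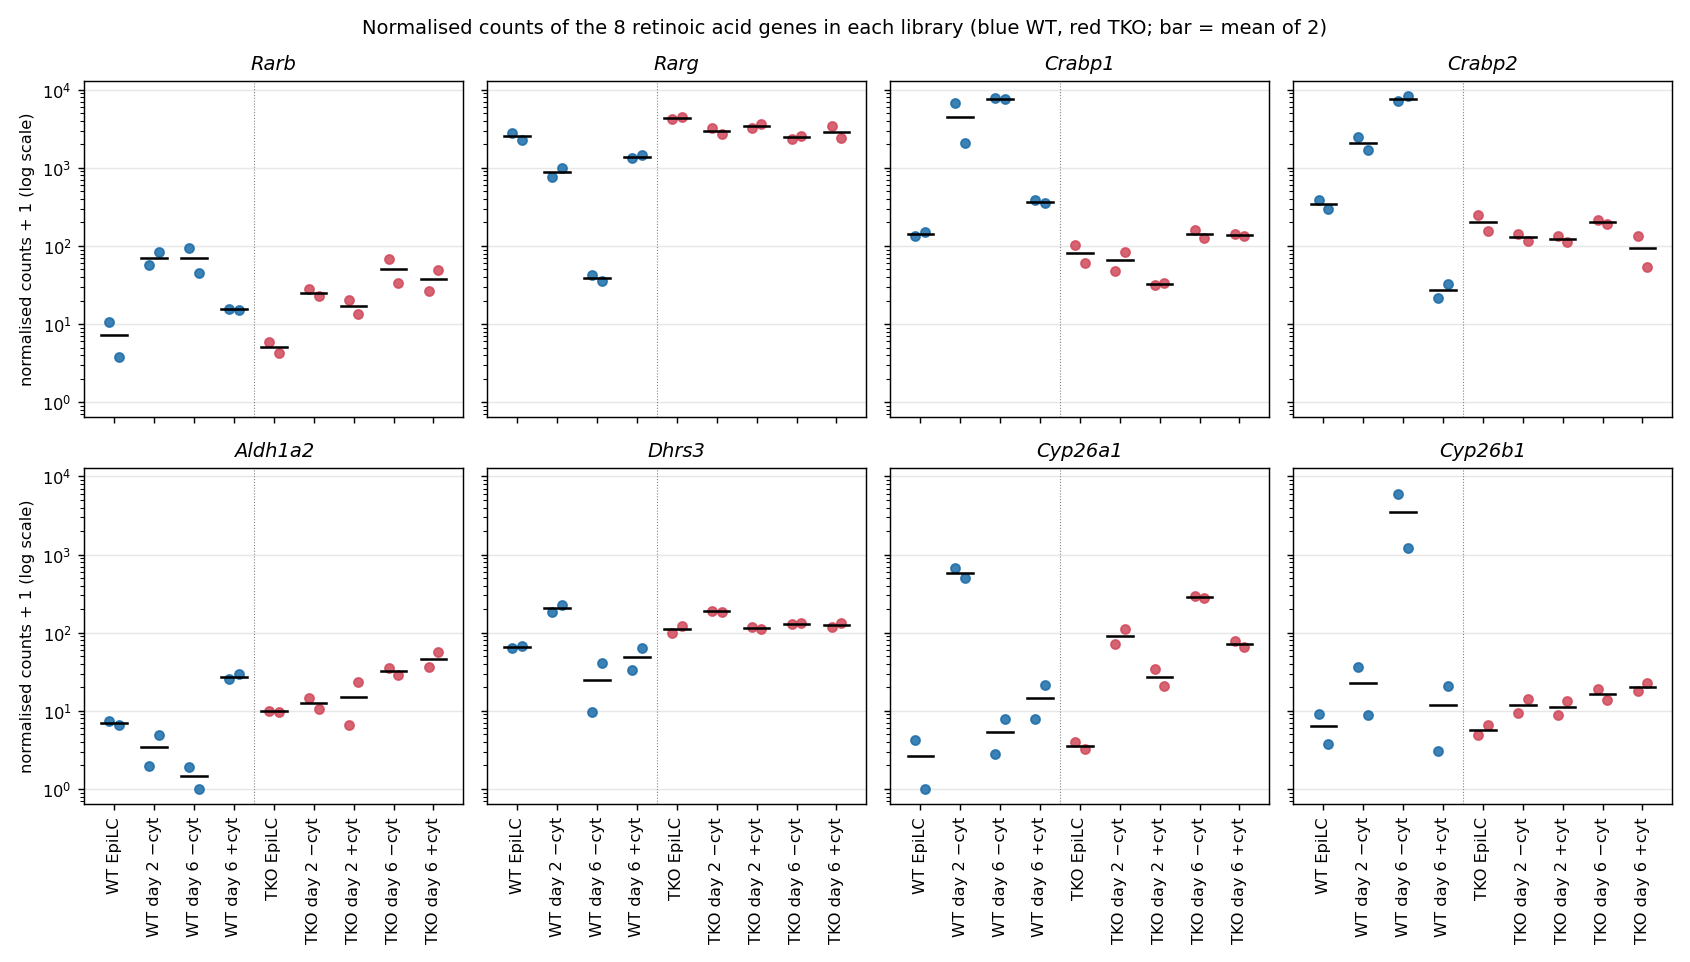
Normalised counts plus 1, on a log axis, of each of the 8 genes in the 9 conditions; each point is a library, blue for WT and red for TKO, and the black bar is the mean of the 2 libraries. Crabp1 and Crabp2 are at 1684 or more in WT aggregates without cytokines and at 251 or less in the TKO libraries, and Cyp26b1 is at 1209 or more in WT day 6 without cytokines and at 35.1 or less in the other libraries.

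In WT cells, most of the 8 genes changed on leaving the EpiLC state without cytokines. The comparisons share libraries (WT EpiLC and each aggregate group enter several), so they are given side by side and are not independent of each other. Between EpiLC and day 2, 5 of 8 genes rose (Rarb, Crabp1, Crabp2, Dhrs3 and Cyp26a1) and 1, Rarg, fell. Over all genes tested, 18.6% rose and 15.7% fell in that comparison at an adjusted p below 0.05, the threshold used throughout with edgeR's quasi-likelihood test. Between day 2 and day 6 without cytokines, Cyp26b1 and Crabp2 rose while Rarg, Dhrs3 and Cyp26a1 fell, which is 2 higher and 3 lower of 8. This stands beside 20.5% higher and 19% lower of all genes. The median log2 fold change of the 8 genes was 2.47 in the first interval and -0.96 in the second, beside 0.02 and 0.01 over all genes. In WT day 6 with cytokines against EpiLC, Cyp26a1, Crabp1 and Aldh1a2 were higher and Rarg and Crabp2 were lower, 3 and 2 of 8, where 22.4% and 18.2% of all genes were higher and lower.

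Between the genotypes, 1 of the 8 genes passed the test in EpiLCs and 5 to 7 in aggregates. In EpiLCs that gene was Rarg, higher in TKO, which is 1 of 8 higher and 0 lower beside 7.57% and 3.18% of all genes. At day 2 without cytokines, TKO cells had more Rarg and Aldh1a2 and less Rarb, Cyp26a1, Crabp1 and Crabp2 RNA than WT cells, 2 higher and 4 lower of 8 beside 18% and 14.8% of all genes. At day 6 without cytokines, Rarg, Cyp26a1, Dhrs3 and Aldh1a2 were higher in TKO and Cyp26b1, Crabp1 and Crabp2 were lower, 4 and 3 of 8 beside 28.5% and 26.9% of all genes. At day 6 with cytokines, Rarg, Cyp26a1, Crabp2 and Dhrs3 were higher and Crabp1 was lower, 4 and 1 of 8 beside 11.3% and 7.53% of all genes. The direction for Crabp2 was thus opposite at day 6 with and without cytokines, where the WT cells with cytokines were the sorted ones.

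Within TKO cells, the 6 comparisons gave 5 calls in all for the 8 genes. From EpiLC to day 2, Rarb and Cyp26a1 rose without cytokines, 2 higher and 0 lower beside 10.1% and 8.52% of all genes, and Cyp26a1 rose with cytokines, 1 higher and 0 lower beside 7.88% and 6.39%. An unadjusted p below 0.05 was found for 3 (Rarb, Rarg and Cyp26a1) without cytokines and 4 (Rarb, Cyp26a1, Crabp1 and Crabp2) with them. DESeq2 also called a fall of Rarg without cytokines (-0.54, adjusted p = 0.0414) and of Crabp1 with them (-1.36, adjusted p = 0.0216). From day 2 to day 6 without cytokines no member passed the test, beside 0.422% of all genes higher and 0.0543% lower, while 3 of the 8 (Cyp26a1, Crabp1 and Aldh1a2) had an unadjusted p below 0.05 in edgeR and DESeq2 called 1 (Cyp26a1). With cytokines over the same interval Crabp1 rose, 1 of 8 higher and 0 lower beside 4.28% and 1.72% of all genes, and 3 (Cyp26a1, Crabp1 and Aldh1a2) had an unadjusted p below 0.05. With against without cytokines in TKO cells, no member passed at day 2 in edgeR, beside 2.05% of all genes higher and 2.47% lower. There 1 (Cyp26a1) had an unadjusted p below 0.05, and DESeq2 called it. At day 6 Cyp26a1 was lower with cytokines, 0 higher and 1 lower of 8 beside 2.56% and 3.05%, and 2 (Cyp26a1 and Crabp2) had an unadjusted p below 0.05.

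**Figure D2:**
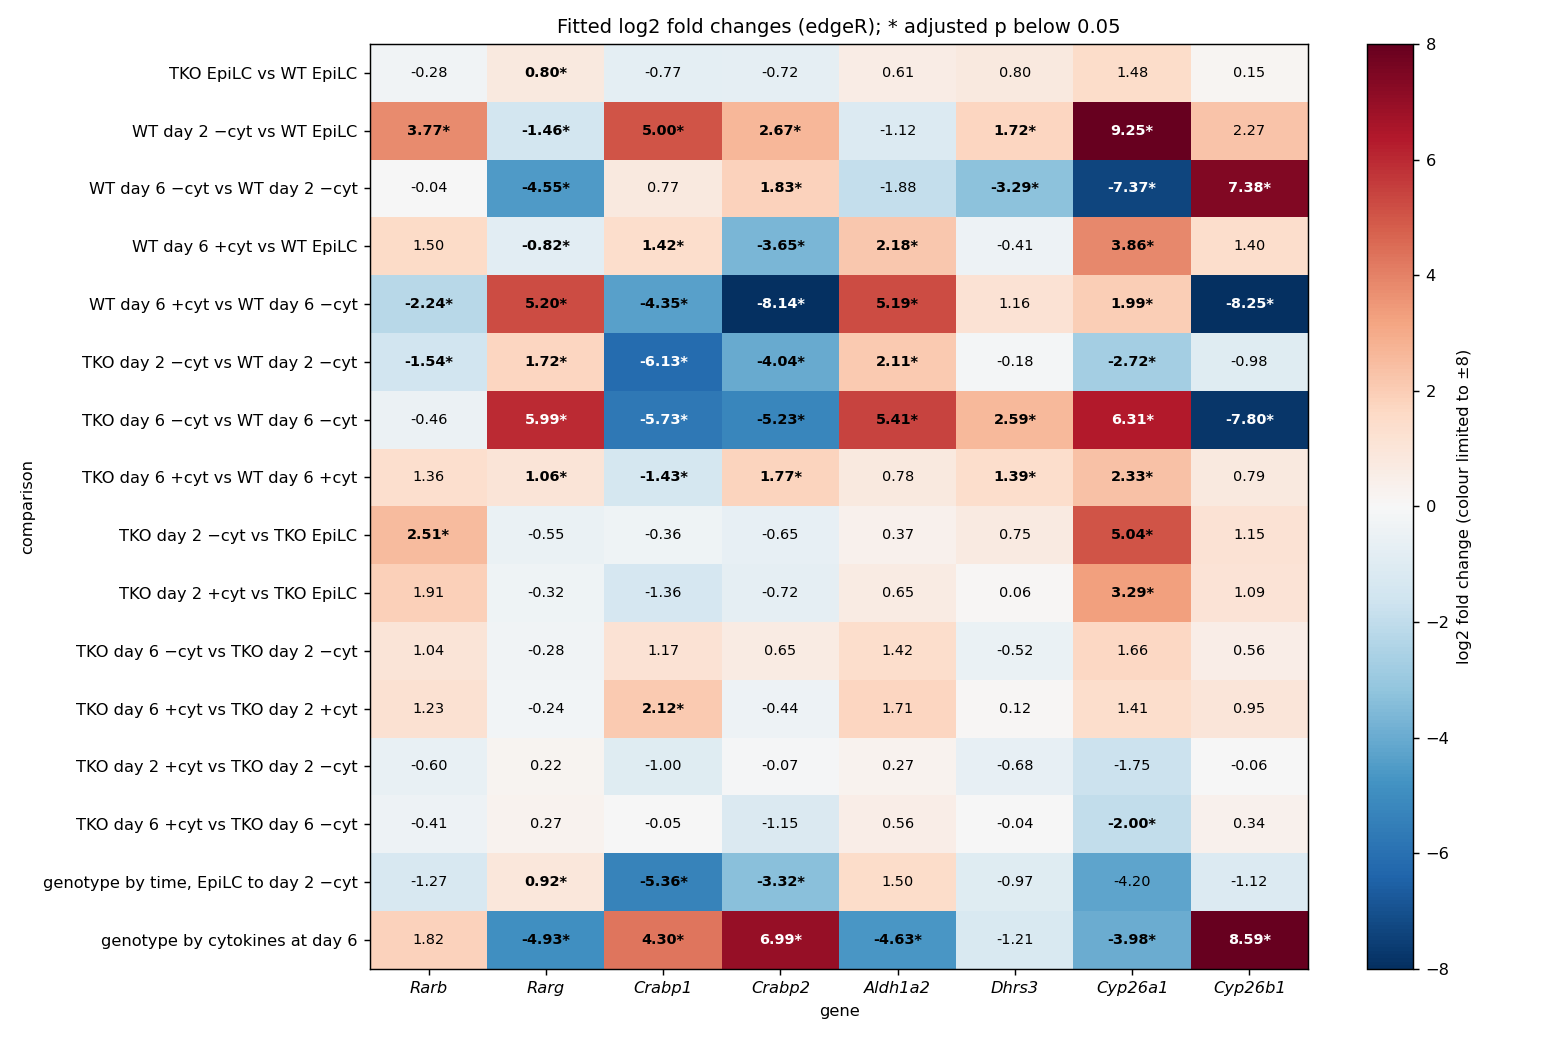
Fitted log2 fold changes of the 8 genes (columns) in the 14 comparisons and 2 differences of differences (rows; cyt stands for cytokines), coloured from blue (lower) to red (higher) with the colour limited to 8 in either direction, with the value printed in each cell and an asterisk where the adjusted p was below 0.05. The WT rows and the TKO against WT rows hold most of the asterisks; the 6 comparisons within TKO hold 5.

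Of the 2 receptors among the 8 genes, Rarg had the higher level per kilobase of exon in 8 of the 9 conditions. It ran from 207 to 1014 normalised counts per kilobase there, against 0.784 to 13.2 for Rarb. The exception was WT day 6 without cytokines, with means of 8.97 for Rarg and 13.1 for Rarb. Exon lengths here and below were those of GENCODE M21, whereas reads were counted over RefSeq exons. The Rarg gene lies at chr15:102234938-102257517 on the minus strand and encodes retinoic acid receptor gamma. Its normalised counts were 2802 and 2269 in WT EpiLC, 765 and 1002 in WT day 2 without cytokines, 41.7 and 34.7 in WT day 6 without cytokines and 1337 and 1447 in WT day 6 with cytokines. In TKO cells the counts were 4203 and 4440.0 in EpiLC, 3253 and 2708 in day 2 without cytokines, 3265 and 3614 in day 2 with cytokines, 2324 and 2564 in day 6 without cytokines and 3381 and 2435 in day 6 with cytokines. The 2 WT libraries at day 6 without cytokines thus stood below all 16 others. Rarg fell by 1.46 ± 0.20 on the log2 scale (± standard error, adjusted p = 6.22e-05) from WT EpiLC to day 2 and by a further 4.55 ± 0.24 (adjusted p = 7.54e-09) to day 6 without cytokines. It was 63.5-fold higher in TKO than in WT at day 6 without cytokines (log2 5.99 ± 0.25, adjusted p = 4.71e-10), 3.29-fold higher at day 2 (adjusted p = 1.45e-05) and 2.08-fold higher at day 6 with cytokines (adjusted p = 0.0018). WT day 6 with cytokines was 1.76-fold below WT EpiLC (log2 -0.82, adjusted p = 0.00371), a call lost with library size scaling alone (-0.42, adjusted p = 0.0726).

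The difference in Rarg between the genotypes was already 1.74-fold in EpiLCs (log2 0.80 ± 0.19, adjusted p = 0.0167), where the groups did not overlap. That call was lost without WT EpiLC replicate 1 (adjusted p = 0.0584), without WT EpiLC replicate 2 (0.158) and without TKO EpiLC replicate 2 (0.0785). In the order of levels over the 9 conditions, TKO EpiLC was highest, and the first 6 places, down to WT EpiLC and TKO day 6 without cytokines, differed from their neighbours by no more than the test could resolve (adjusted p from 0.294 to 0.97). WT day 6 with cytokines, WT day 2 without cytokines and WT day 6 without cytokines followed, each lower than the one before it. The 3 genes with the most similar pattern over the 9 condition means of log2 CPM were Slc39a4 (r = 0.993), Trim6 (0.99) and Dctd (0.99), among 11994 candidates; for this and the other members these correlations are descriptions over 9 points.

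Rarb was low in all conditions and lowest in EpiLCs. The gene, at chr14:16430839-16819156 on the minus strand in GENCODE M21, encodes retinoic acid receptor beta. Normalised counts were 9.64 and 2.78 in WT EpiLC, 55.6 and 83.1 in WT day 2 without cytokines, 94.3 and 44.0 in WT day 6 without cytokines and 14.6 and 14.2 in WT day 6 with cytokines. TKO libraries were at 4.96 and 3.30 in EpiLC, 27.0 and 21.6 in day 2 without cytokines, 19.3 and 12.4 in day 2 with cytokines, 66.8 and 32.8 in day 6 without cytokines and 25.2 and 48.2 in day 6 with cytokines. Every aggregate library was above every EpiLC library. The rise from EpiLC to day 2 without cytokines was 13.7-fold in WT (log2 3.77 ± 0.65, adjusted p = 0.000453), with log2 values from 2.90 without WT EpiLC replicate 2 to 4.62 without WT EpiLC replicate 1. In TKO it was 5.68-fold (log2 2.51 ± 0.69, adjusted p = 0.0215), a call that was lost without any 1 of the 4 libraries (adjusted p from 0.0614 to 0.118). The difference between these rises was -1.27 ± 0.99 (adjusted p = 0.465), so the rises were not shown to differ.

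TKO cells had 2.91-fold less Rarb than WT at day 2 without cytokines (adjusted p = 0.0405), a call also lost without any 1 of the 4 libraries (adjusted p from 0.0508 to 0.221). At day 6 without cytokines the log2 difference was -0.46 ± 0.52 (adjusted p = 0.466) and the libraries overlapped. WT day 6 with cytokines had 4.71-fold less Rarb than WT day 6 without (adjusted p = 0.00262), and log2 -1.57 in place of -2.24 without WT day 6 without cytokines replicate 1. In the order of levels no neighbouring pair differed past the threshold (adjusted p from 0.087 to 0.971), the 2 WT aggregates without cytokines being highest and TKO EpiLC lowest. The neighbouring gene Top2b, more abundant and on the opposite strand, lies close to Rarb. Reads were counted over RefSeq exons, and in the RefSeq positions at hand Rarb ends 51 bases from Top2b without overlap. GENCODE exons of the pair share 1793 bases, and exons of the antisense gene Gm48162 share a further 227 bases with Rarb. The counts were made without strand, so reads from any stretch shared in the counted exons could not be told apart. Top2b was at 877 normalised counts in WT EpiLC, 2617 in WT day 2 without cytokines, 5121 in WT day 6 without cytokines and 728 in WT day 6 with cytokines. It was between 1161 and 1982 in TKO conditions, and its part in the Rarb counts was not tested. Ehd3 (r = 0.99), Bcr (0.973) and Timp2 (0.966) had the patterns most like that of Rarb.

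The binding proteins were high in WT aggregates without cytokines and low in all TKO libraries. Crabp1 (chr9:54764748-54773110, plus strand) and Crabp2 (chr3:87948666-87953376, plus strand) encode small cytosolic proteins that hold retinoic acid; CRABP2 is known to hand it to the receptor and CRABP1 to limit what reaches it. Crabp1 was at 132 and 148 normalised counts in WT EpiLC, 6774 and 2049 in WT day 2 without cytokines, 7752 and 7621 in WT day 6 without cytokines and 382 and 351 in WT day 6 with cytokines. The 2 libraries of WT day 2 without cytokines differed 3.31-fold, far more than those of WT day 6 without cytokines. TKO libraries reached no more than 158, near the WT EpiLC level: 102 and 59.4 in EpiLC, 46.7 and 81.7 in day 2 without cytokines, 30.6 and 32.3 in day 2 with cytokines, 158 and 126 in day 6 without cytokines and 141 and 132 in day 6 with cytokines. Crabp1 rose 32.1-fold from WT EpiLC to day 2 (log2 5.0 ± 0.44, adjusted p = 1.75e-06; 3.93 without WT day 2 without cytokines replicate 1, 5.61 without replicate 2), while in TKO the same interval gave -0.36 ± 0.45 (adjusted p = 0.607).

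The difference of these time courses, TKO minus WT, was -5.36 ± 0.61 for Crabp1 (adjusted p = 7.25e-05) and -3.32 ± 0.46 for Crabp2 (adjusted p = 0.000306), where the 8 genes gave 1 higher (Rarg, 0.92 ± 0.27) and 2 lower calls beside 6.08% higher and 6.19% lower of all genes. For Crabp1 the value was -4.29 without WT day 2 without cytokines replicate 1 and -5.95 without replicate 2. The Rarg call (adjusted p = 0.0396) was lost in 7 of the 8 fits that left out a library, the exception being the fit without WT day 2 without cytokines replicate 2 (adjusted p = 0.0272). TKO cells had 70.2-fold less Crabp1 than WT at day 2 without cytokines (log2 -6.13 ± 0.48, adjusted p = 3.93e-07; -5.06 and -6.76 without the first or second WT library) and 53.1-fold less at day 6 without cytokines (-5.73 ± 0.46, adjusted p = 9.42e-08). From WT day 2 to day 6 without cytokines Crabp1 gave 0.77 ± 0.37 (adjusted p = 0.115), which became 1.84 and passed the test (adjusted p = 0.000439) without WT day 2 without cytokines replicate 1. Within TKO, Crabp1 rose 4.34-fold from day 2 to day 6 with cytokines (adjusted p = 0.0182), a call lost without any 1 of the 4 libraries (adjusted p from 0.069 to 0.163). At day 6 with cytokines it was lower in TKO than in WT (log2 -1.43, adjusted p = 0.0233), a call also lost without any 1 of the 4 libraries (adjusted p from 0.0666 to 0.115).

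Crabp2 climbed in steps in WT aggregates without cytokines, from 387 and 300 normalised counts in EpiLC to 2512 and 1684 at day 2 and 7122 and 8221 at day 6. Both steps passed the test, 6.35-fold (adjusted p = 2.72e-05) and 3.55-fold (adjusted p = 0.000274). With cytokines, WT day 6 was at 20.9 and 31.5, the lowest level of any condition and 12.5-fold below WT EpiLC (adjusted p = 4.76e-06). TKO libraries ran from 52.8 to 251: 251 and 153 in EpiLC, 143 and 115 in day 2 without cytokines, 131 and 113 in day 2 with cytokines, 212 and 192 in day 6 without cytokines and 133 and 52.8 in day 6 with cytokines. TKO cells were thus lower than WT without cytokines, 16.5-fold at day 2 (adjusted p = 1.06e-06) and 37.4-fold at day 6 (adjusted p = 2.50e-08). They were 3.41-fold higher than the sorted WT cells at day 6 with cytokines (adjusted p = 0.00629). That last call was lost without WT day 6 with cytokines replicate 1 (adjusted p = 0.0776) and without TKO day 6 with cytokines replicate 1 (log2 0.99 in place of 1.77, adjusted p = 0.133).

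The 2 binding proteins shared much of their order over the conditions (r = 0.78 between their 9 means, a description), with WT day 6 and day 2 without cytokines at the top for both. They parted in WT day 6 with cytokines, where Crabp1 stood next after those conditions, 2.68-fold above WT EpiLC (adjusted p = 0.0104; lost without WT EpiLC replicate 1, 0.0694, or replicate 2, 0.0527), and Crabp2 was lowest of all conditions. Per kilobase of exon, the top levels of the pair were the highest among the 8 genes and 9 conditions, 9584 ± 115.5 (SD, n = 2) normalised counts for Crabp1 and 5803 ± 588 for Crabp2 in WT day 6 without cytokines, followed by Rarg with at most 1014 ± 39.3, in TKO EpiLC. The genes most like Crabp1 were Six5, Acvr2b and Tmem43 (r from 0.976 to 0.979), and those most like Crabp2 were Tuba1a (r = 0.992), Fjx1 (0.988) and Marcks (0.987). Of the 4 neural markers, 3 were higher and 0 lower from WT EpiLC to day 2 (beside 18.6% and 15.7% of all genes) and again from day 2 to day 6 without cytokines (beside 20.5% and 19%), where Crabp2 rose. In TKO against WT without cytokines, where Crabp2 was lower, 0 were higher and 2 lower at day 2 (beside 18% and 14.8%) and 0 and 4 at day 6 (beside 28.5% and 26.9%). In WT day 6 with against without cytokines, where Crabp2 was lower, 0 were higher and 4 lower (beside 29.6% and 28.6%). In some other comparisons the markers and Crabp2 differed in their calls. In WT day 6 with cytokines against EpiLC 2 markers were higher and 0 lower (beside 22.4% and 18.2%) while Crabp2 was lower, and in TKO against WT at day 6 with cytokines 1 was higher and 1 lower (beside 11.3% and 7.53%) while Crabp2 was higher. From TKO EpiLC to day 2 without cytokines 2 were higher and 0 lower (beside 10.1% and 8.52%), and Crabp2 gave -0.65 (adjusted p = 0.184).

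Aldh1a2, at chr9:71215789-71296243 on the plus strand, was nearly silent in WT cells without cytokines. Its normalised counts were 6.43 and 5.56 in WT EpiLC, 0.975 and 3.88 in WT day 2 without cytokines, 0.907 and 0 in WT day 6 without cytokines and 24.3 and 28.3 in WT day 6 with cytokines. In TKO cells they were 8.93 and 8.80 in EpiLC, 13.5 and 9.61 in day 2 without cytokines, 5.67 and 22.3 in day 2 with cytokines, 34.5 and 27.8 in day 6 without cytokines and 35.3 and 55.1 in day 6 with cytokines. The 2 WT libraries at day 6 without cytokines held 2 and 0 reads, against 32 and 22 in the matched TKO libraries, a ratio of summed counts of 48.2 (95% Clopper-Pearson interval 12.7 to 408, for counting error only), and the edgeR test passed (log2 5.41 ± 0.85, adjusted p = 8.09e-05; 7.98 without WT day 6 without cytokines replicate 1). Against the same WT libraries, WT day 6 with cytokines held 40.5 times as much (interval 10.9 to 340, adjusted p = 8.82e-05; log2 5.19, and 7.75 without the same WT library). At day 2 without cytokines the difference between genotypes was 2.11 ± 0.77 on the log2 scale (adjusted p = 0.0471), a call lost without any 1 of the 4 libraries (adjusted p from 0.055 to 0.227), without the filter on low counts (0.0579) and when only those libraries were fitted (0.0565).

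The mean level of Aldh1a2 was highest in the 2 TKO day 6 conditions, but no step within TKO passed the test, and neighbours in the order of levels did not differ past the threshold (adjusted p from 0.177 to 0.84). WT day 6 with cytokines was 4.54-fold above WT EpiLC (adjusted p = 0.0153), a call lost without WT EpiLC replicate 1 (adjusted p = 0.0607), WT EpiLC replicate 2 (0.117) or WT day 6 with cytokines replicate 2 (0.0657). The genes most like Aldh1a2 were Dazl (r = 0.984), which encodes a germ cell RNA-binding protein, Myo1f (0.977) and Kank4 (0.974). Of the 5 germ cell markers, 5 were higher in WT day 6 with cytokines both against EpiLC (beside 22.4% of all genes) and against WT day 6 without cytokines (beside 29.6%). In TKO against WT without cytokines 5 were higher at day 2 (beside 18%) and 4 at day 6 (beside 28.5%), and Aldh1a2 was higher in these 4 comparisons. The calls differed in some other comparisons. In TKO against WT at day 6 with cytokines 0 markers were higher and 4 lower (beside 11.3% and 7.53%), and Aldh1a2 gave 0.78 (adjusted p = 0.37). From TKO EpiLC to day 2, 5 were higher both without cytokines (beside 10.1%) and with them (beside 7.88%), where Aldh1a2 gave 0.37 (adjusted p = 0.731) and 0.65 (adjusted p = 0.573).

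Dhrs3 encodes an enzyme that reduces retinaldehyde back to retinol and so holds down the supply of retinoic acid. The gene lies at chr4:144892827-144928209 on the plus strand. Its normalised counts were 62.7 and 66.2 in WT EpiLC, 183 and 228 in WT day 2 without cytokines, 8.61 and 39.4 in WT day 6 without cytokines and 32 and 62.4 in WT day 6 with cytokines. TKO libraries all lay between 98.2 and 188, with 98.2 and 122 in EpiLC, 188 and 185 in day 2 without cytokines, 118 and 112 in day 2 with cytokines, 128 and 131 in day 6 without cytokines and 118 and 131 in day 6 with cytokines. WT thus covered a wider range than TKO. In WT the gene rose 3.30-fold to day 2 (adjusted p = 0.00851; lost without WT EpiLC replicate 1, 0.0625, or replicate 2, 0.0543) and then fell by 3.29 ± 0.50 on the log2 scale (adjusted p = 0.000108; -2.43 without WT day 6 without cytokines replicate 1 and -4.61 without replicate 2). At day 2 without cytokines the genotypes gave -0.18 ± 0.43 (adjusted p = 0.782), and at day 6 without cytokines TKO was 6.04-fold higher (log2 2.59 ± 0.50, adjusted p = 0.000427).

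That day 6 value of Dhrs3 moved between 1.73 and 3.92 when WT day 6 without cytokines replicate 1 or 2 was left out; those 2 libraries differed 4.57-fold. The call was lost when only the 4 libraries compared were fitted (adjusted p = 0.0595). With cytokines at day 6 TKO was 2.62-fold higher (adjusted p = 0.0461), a call lost without any 1 of the 4 libraries (adjusted p from 0.05 to 0.313) and with library size scaling alone (0.0553). No neighbouring pair in its order of levels differed past the threshold (adjusted p from 0.0547 to 0.967). WT day 6 with against without cytokines was 2.24-fold higher without passing (adjusted p = 0.0547), and this passed the test with DESeq2 (0.0408), without the filter on low counts (0.028), without WT day 6 without cytokines replicate 2 (2.48, 0.000121) or without WT day 6 with cytokines replicate 1 (1.55, 0.0296). Ptpn14 (r = 0.941), Tubb6 (0.925) and Cobll1 (0.92) followed it most closely.

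The degrading enzymes were high at different times in WT aggregates without cytokines. Cyp26a1 (chr19:37697798-37701536, plus strand) was at 3.21 and 0 normalised counts in WT EpiLC, 673 and 493 at day 2 and 1.81 and 6.95 at day 6. Cyp26b1 (chr6:84571414-84593908, minus strand) was at 8.03 and 2.78, 35.1 and 7.77, and 5879 and 1209 at the same times. Cyp26a1 was thus high at day 2 only and Cyp26b1 at day 6 only, with no overlap between those libraries and any other WT condition. The summed counts of Cyp26a1 at day 2 were 694 times those of EpiLC, which held 2 reads in all (95% interval 192 to 5733, for counting error only; adjusted p = 1.15e-06). The fitted log2 value, 9.25, was 12.35 and 7.51 without WT EpiLC replicate 1 or 2. The gene was 165-fold lower at day 6 than at day 2 (log2 -7.37 ± 0.65, adjusted p = 7.83e-07). The fall was -6.40 without WT day 6 without cytokines replicate 1 and -8.28 without replicate 2.

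Cyp26b1 was 166-fold higher at day 6 than at day 2 in WT without cytokines (log2 7.38 ± 0.82, adjusted p = 6.82e-06). The 2 day 6 libraries differed 4.86-fold, and the rise was 5.82 without WT day 6 without cytokines replicate 1 and 8.11 without replicate 2, and 8.75 and 6.66 without WT day 2 without cytokines replicate 1 and 2. In all 14 libraries other than those of WT day 2 and WT day 6 without cytokines, Cyp26b1 stayed between 2.09 and 21.8 normalised counts. TKO day 6 without cytokines, at 18.3 and 12.6, was 222-fold lower than WT (log2 -7.80 ± 0.86, adjusted p = 2.48e-06; -6.25 without WT day 6 without cytokines replicate 1, -8.52 without replicate 2). Below WT day 6 without cytokines, no neighbouring pair in the order of levels differed past the threshold. Its nearest patterns were those of Dync1li2 (r = 0.987), 2700081O15Rik (0.987) and Shox2 (0.984). Over the 9 condition means it ran against Rarg (r = -0.946), but WT day 6 without cytokines stood far apart for both genes. Its mean normalised counts were 3544 for Cyp26b1 and 38.2 for Rarg. All other conditions had means of 4.73 to 21.4 and 884 to 4322, and the correlation without that condition was not computed.

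In TKO aggregates at day 6 without cytokines, Cyp26a1 was the more abundant of the pair, at 144 ± 5.05 normalised counts per kilobase of exon against 2.89 ± 0.751 for Cyp26b1 (SD, n = 2). In WT the values were 2.21 ± 1.83 and 662 ± 617. Cyp26a1 was at 2.98 and 2.20 normalised counts in TKO EpiLC, 70.6 and 111 in day 2 without cytokines, 32.9 and 19.9 in day 2 with cytokines, 292 and 278 in day 6 without cytokines and 77.3 and 64.3 in day 6 with cytokines. The summed counts without cytokines at day 2 were 34.2 times those of EpiLC (95% interval 14.3 to 107; adjusted p = 0.000317), and with cytokines 10.2 times (interval 4.07 to 33; adjusted p = 0.0101, lost without TKO EpiLC replicate 1, TKO EpiLC replicate 2 or TKO day 2 with cytokines replicate 1, adjusted p from 0.053 to 0.082). The step from day 2 to day 6 without cytokines was 1.66 ± 0.47 and missed the threshold over all genes (adjusted p = 0.176), although the libraries did not overlap. It passed with DESeq2 (0.0217), without the filter on low counts (0.0228) and when only those libraries were fitted (0.000321). TKO was 6.58-fold lower than WT at day 2 without cytokines (adjusted p = 0.000545) and 79.5-fold higher at day 6 (log2 6.31 ± 0.64, adjusted p = 1.13e-06; 5.35 without WT day 6 without cytokines replicate 1, 7.23 without replicate 2).

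With cytokines at day 6, Cyp26a1 in TKO was 5.03-fold above WT (adjusted p = 0.00729; lost without WT day 6 with cytokines replicate 1, 0.0972, and 3.31 on the log2 scale without replicate 2). The WT libraries were at 6.95 and 20.6, 17.0 times the summed counts of WT EpiLC (95% interval 4.42 to 145, adjusted p = 0.00453). That call was lost without WT EpiLC replicate 2 (log2 2.13 in place of 3.86, adjusted p = 0.134) or WT day 6 with cytokines replicate 2 (2.87, 0.061), and the value was 6.96 without WT EpiLC replicate 1. Cyp26a1 was highest in WT day 2 without cytokines, followed by TKO day 6 without cytokines, which was not told apart from it (adjusted p = 0.0781). The genes most like it were Prune2 (r = 0.947), Met (0.941) and Zfp449 (0.91). Rarb and Cyp26a1, whose windows hold a DR5, had r = 0.69 between their condition means, and Cyp26a1 and Dhrs3 had 0.70; with 9 points these are descriptions. For Cyp26a1 the difference between the EpiLC to day 2 changes of the 2 genotypes was -4.20 ± 1.43 (adjusted p = 0.0693), which passed with DESeq2 (0.0144), without the filter on low counts (0.0187), when only those libraries were fitted (0.0404) and without WT EpiLC replicate 1 (-7.30, 0.0308).

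At day 6 the difference between aggregates with and without cytokines was not the same in WT and TKO cells. In WT, Rarg (36.7-fold), Aldh1a2 and Cyp26a1 (3.96-fold) were higher with cytokines and Rarb, Crabp1 (20.4-fold), Crabp2 (283-fold) and Cyp26b1 (304-fold) were lower, 3 and 4 of 8 beside 29.6% and 28.6% of all genes. The call for Cyp26a1 was lost without WT day 6 without cytokines replicate 1 (log2 1.02, adjusted p = 0.289), without WT day 6 with cytokines replicate 2 (log2 1.0, adjusted p = 0.34) and when only the 4 libraries compared were fitted (adjusted p = 0.186). In TKO cells Cyp26a1 alone passed, 3.99-fold lower with cytokines (log2 -2.0 ± 0.48, adjusted p = 0.0264; lost without any 1 of the 4 libraries, adjusted p from 0.114 to 0.143). Crabp2 missed the threshold in TKO in edgeR (log2 -1.15, adjusted p = 0.0691). It passed with DESeq2 (0.0211) and with library size scaling alone (0.00791). The difference between the cytokine effects, TKO minus WT, passed for 6 of 8 genes, 3 higher (Cyp26b1, Crabp1 and Crabp2) and 3 lower (Rarg, Cyp26a1 and Aldh1a2), beside 21% and 22% of all genes. The values were 8.59 ± 1.33 for Cyp26b1 (7.04 to 10.95 with a library left out), 6.99 ± 0.52 for Crabp2, 4.30 ± 0.58 for Crabp1, -4.93 ± 0.30 for Rarg, -4.63 ± 1.05 for Aldh1a2 and -3.98 ± 0.84 for Cyp26a1. Rarb (1.82 ± 0.76, adjusted p = 0.066) and Dhrs3 (-1.21 ± 0.66, adjusted p = 0.156) did not pass, and each did without WT day 6 without cytokines replicate 2 (2.25, 0.0189, and -2.53, 0.000813). The Cyp26b1 difference in WT was -6.70 and -8.97 without WT day 6 without cytokines replicate 1 or 2, and -7.43 and -10.61 without WT day 6 with cytokines replicate 1 or 2. The WT side of this comparison sets sorted cells against whole aggregates, which the TKO side does not.

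**Figure D3:**
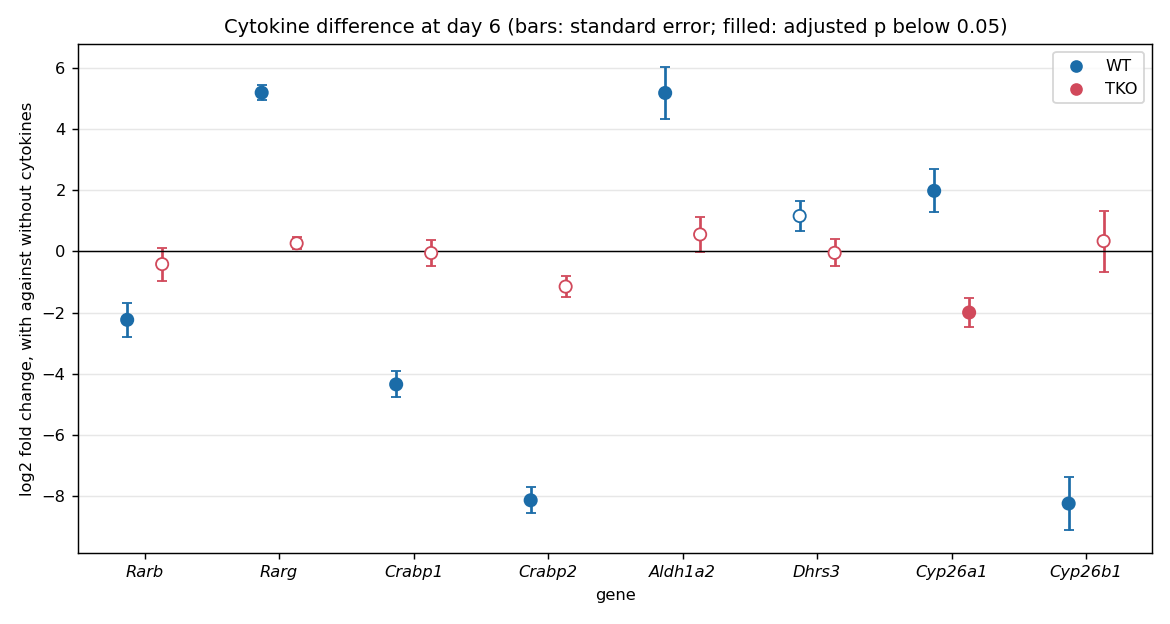
Log2 fold change, with against without cytokines at day 6, of each of the 8 genes in WT (blue) and TKO (red); bars are standard errors and filled points passed an adjusted p of 0.05. WT points run from -8.25 (Cyp26b1) to 5.20 (Rarg), and TKO points from -2.0 (Cyp26a1) to 0.56 (Aldh1a2).

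Other genes of the pathway were taken as 4 lists. Retinol uptake, storage and oxidation held 11 genes, of which 9 were tested. From WT EpiLC to day 2, 1 of these rose, Rdh10 (log2 1.52, adjusted p = 0.00198), which oxidises retinol, and 2 fell, Rdh11 (-1.0, adjusted p = 0.0014) and Adh5 (-0.70), beside 18.6% of all genes higher and 15.7% lower. The rule named the 3 largest changes per list and comparison with a mean of at least 50 normalised counts in the higher group. Other called genes were named after their values were seen. From day 2 to day 6 without cytokines only Rdh10 passed (-1.64), which is 0 higher and 1 lower of 9 beside 20.5% and 19%. TKO cells had less Dhrs4 than WT at day 2 and day 6 without cytokines (-1.49 and -1.28), less Rdh10 at day 2 (-1.06, adjusted p = 0.0173) and more of the retinol carrier Rbp4 at day 6 (3.49, adjusted p = 0.00051). Rdh11 was also lower at both times (-0.91 and -0.96), and Lrat, which stores retinol as esters, was higher at both, with 0 and 1 reads in WT and 25 and 24 in TKO at day 6. The presence of Lrat was not particular to TKO cells. It was at 75.8 and 50.2 normalised counts in WT day 6 with cytokines, against 6.72 and 20.7 in TKO day 6 with cytokines. Rbp4 was higher at day 2 as well (1.74), and Aldh1a3 at day 6 (2.69). Before aggregation, Rbp4 was already at 87.3 and 74.8 normalised counts in TKO EpiLC against 12.9 and 11.1 in WT EpiLC. For EpiLCs the list counted 1 higher and 0 lower of 9 in TKO, beside 7.57% and 3.18% of all genes. The list counted 2 higher and 3 lower of 9 in TKO at day 2, beside 18% and 14.8% of all genes, and 3 and 2 at day 6, beside 28.5% and 26.9%. It had medians of -0.48 and -0.01 beside 0.00 and 0.01 over all genes.

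Of 10 other receptors and cofactors, 3 rose from WT EpiLC to day 2 (Nrip1, log2 2.36; Rxra, 2.03; Ncoa2, 0.79) and 1, Rara, fell (-0.69), beside 18.6% and 15.7% of all genes. Rxra, a partner of the RARs, went from 188 and 249 normalised counts to 976 and 768. From WT day 2 to day 6 without cytokines, Ncoa1 (1.23) and Rara (0.79) rose and Rxrg (-1.80, adjusted p = 0.0424) and Ncoa3 (-0.92) fell, 2 and 2 of 10 beside 20.5% and 19%. TKO against WT gave 3 higher and 2 lower at day 2 (beside 18% and 14.8% of all genes), with Rxrg at -3.30, Rxra at -0.71, Ncoa1 at 1.60, Ncoa3 at 1.47 and Ncor1 at 0.64. At day 6 it gave 3 higher and 0 lower (beside 28.5% and 26.9%), namely Ncoa3 (2.13), Ncoa1 (0.61) and the corepressor gene Ncor1 (0.60). The medians were 0.12 and 0.28, beside 0.00 and 0.01 over all genes. For EpiLCs, TKO against WT gave 4 higher and 1 lower of 10 (beside 7.57% and 3.18%).

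The list of other carriers and clearance genes held Fabp5, Ppard and Cyp26c1, and all 3 rose from WT EpiLC to day 2, beside 18.6% of all genes. Cyp26c1, the third degrading enzyme, had no read in either WT EpiLC library and 1201 and 449 reads at day 2, at least 576-fold higher against a floor of 3 counts over the group (adjusted p = 5.36e-06). By WT day 6 without cytokines it was at 12 and 5 reads (log2 -7.10, adjusted p = 7.64e-06), and 1, Ppard, also fell in that interval (-0.61). In TKO it held 11 and 8 reads at day 2 without cytokines, lower than WT (log2 -6.18, adjusted p = 2.58e-05). Like Cyp26a1 it was thus high at WT day 2 without cytokines and low on either side, and in TKO day 6 without cytokines it held 15 and 10 reads (1.38 ± 0.81 against WT, adjusted p = 0.163). Fabp5, which carries retinoic acid to PPARD, was lower in TKO at day 2 (-2.78, adjusted p = 2.82e-05) and day 6 without cytokines (-2.41, adjusted p = 2.65e-05). For EpiLCs, TKO against WT gave 1 higher and 0 lower of the 3 (beside 7.57% and 3.18%).

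Of 8 other genes known to be induced by retinoic acid, 5 rose and 0 fell from WT EpiLC to day 2, beside 18.6% and 15.7% of all genes. They had a median log2 fold change of 5.83, or 4.34 with Cdx1, at 0 reads in both EpiLC libraries, set to its bound against 3 counts, beside 0.02 over all genes. Hoxb1, a hindbrain homeobox gene, had 2 and 0 reads in EpiLC and 673 and 546 at day 2, a ratio of 638 (95% interval 176 to 5275). Meis2 rose by 7.87 ± 0.43, and Meis1 from 2 and 1 reads to 384 and 137, a ratio of 182 (interval 61.9 to 884). Tshz1 and Tgm2 (1.83) were the others. From day 2 to day 6 without cytokines 4 rose and 0 fell (beside 20.5% and 19%), namely Meis1 (3.27), Tshz1 (2.39), Tgm2 (2.10) and Meis2 (1.12). In TKO cells without cytokines 6 of the 8 rose from EpiLC to day 2 and 0 fell (beside 10.1% and 8.52%), with a median of 3.24 beside 0.04 over all genes. Over the same interval with cytokines, 8 of the 8 rose (beside 7.88%), with a median of 3.64 beside 0. Against WT EpiLC, WT day 6 with cytokines gave 6 higher and 0 lower (beside 22.4% and 18.2%), with a median of 5.23 beside 0.07. For EpiLCs, TKO against WT gave 0 higher and 0 lower (beside 7.57% and 3.18%). TKO against WT gave 2 higher and 3 lower at day 2 (beside 18% and 14.8%) and 2 and 4 at day 6 (beside 28.5% and 26.9%), with medians of -0.25 and -1.10 beside 0.00 and 0.01. Stra8, a gene of meiotic entry, was on the higher side: it had 1 and 3 reads in WT and 149 and 45 in TKO at day 2 without cytokines, a ratio of 62.5 (95% interval 24.0 to 232; adjusted p = 2.25e-05), and 0 and 0 against 337 and 373 at day 6, at least 422-fold higher (adjusted p = 1.08e-07). Hoxb1 (-3.72 and -4.10), Tshz1 (-2.92 and -3.31) and Meis2 (-1.18 and -2.26) were lower at both times. Meis1 was lower at day 6 (-3.47). Tgm2 was higher at day 2 (1.87) and Cdx1, with 2 and 0 reads in WT and 30 and 10 in TKO, at day 6. WT day 6 with cytokines also held Stra8, at 250 and 237 normalised counts, so its presence was not particular to TKO cells.

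**Figure D4:**
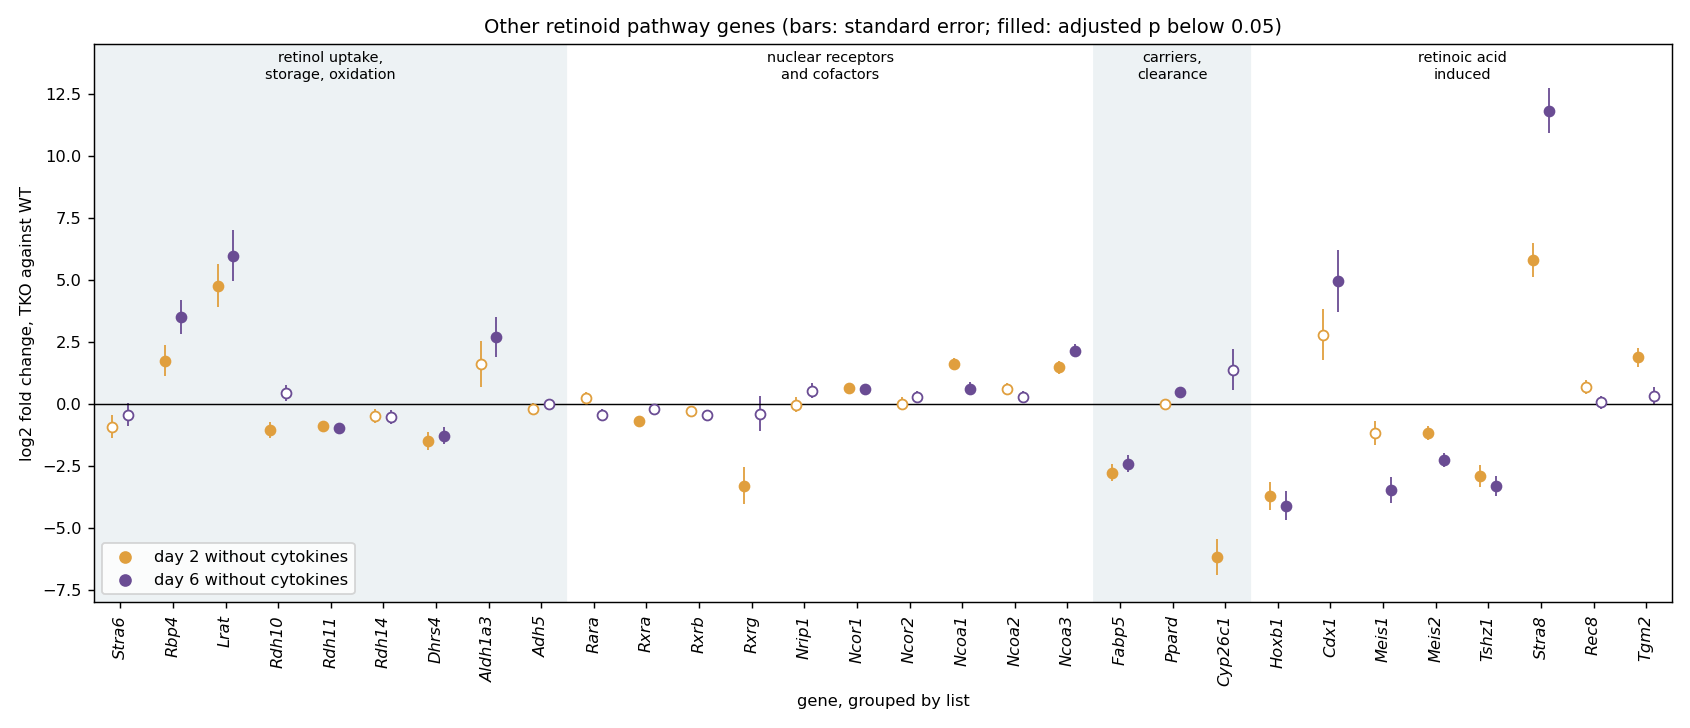
Log2 fold change of the 30 tested genes of the 4 lists in TKO against WT without cytokines, at day 2 (orange) and day 6 (purple), with standard errors as bars and filled points where the adjusted p was below 0.05. Cyp26c1 lies lowest, at -6.18 at day 2, and Stra8 highest, at 5.81 at day 2 and 11.81 at day 6; these fitted values of genes with few reads in a group depend on the prior count of the model.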

How the data were processed

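RNA from 18 libraries of 9 conditions was analysed from 1 table of gene counts. The authors trimmed reads with Trim Galore 0.5.0 and cutadapt 1.16, aligned them to mm10 with STAR 2.7.1a and counted read pairs over RefSeq exons with featureCounts of Subread 1.5.2, with no strand option; the labels also name DESeq2. The deposited values are raw counts per gene, not normalised, and 33 rows at the end of the table that held command text and no counts were left out.

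Counts were fitted in edgeR 4.0.16 (R 4.3.3, limma 3.58.1) with TMM factors after filterByExpr, in 1 quasi-likelihood model of 9 group means, so the groups share an estimate of the spread. The 14 pairwise comparisons and 2 differences of differences were adjusted by Benjamini-Hochberg over all 16582 genes tested, and an adjusted p below 0.05 was called. Counts divided by DESeq2 1.42.0 size factors are printed as normalised counts, with mean ± SD over 2 libraries where given. Groups whose libraries each held 3 or fewer reads, with at least 1 read in all, are compared by a ratio of summed counts with an exact 95% interval, and groups at 0 against 3 counts over the group; both cover counting error only, since reads carried no molecular identifiers. The total of 11286050 to 41257861 counts per library sets the precision. The fit was tested on simulated data.

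The 8 genes, the lists and the comparisons were chosen with earlier results of these data known. From each list and in 4 comparisons without cytokines (WT day 2 against EpiLC, WT day 6 against day 2, TKO against WT at day 2 and day 6), the rule named up to 3 called genes with the largest log2 change and a mean of at least 50 normalised counts in the higher group. For each of the 8 genes it named the 3 genes, with a mean of at least 50 normalised counts, of highest Pearson r over the conditions. Alternatives were DESeq2, RLE factors, library size scaling, no filter, a fold limit, a replicate block, fitting only the libraries compared and leaving out each library. Some genes of the lists are not reported here and were left out of list counts, sums and nearest patterns, though not of the fit.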

Additional observations from a re-analysis of the deposited data

Results flagged for a closer look

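The results listed here are differences between WT and TKO cells in the same contrast, each tested as a difference of differences in edgeR and adjusted over all genes; the sign is TKO minus WT. For the change from EpiLC to day 2 without cytokines they were Rarg at 0.92 ± 0.27 (adjusted p = 0.0396), Crabp1 at -5.36 ± 0.61 (adjusted p = 7.25e-05) and Crabp2 at -3.32 ± 0.46 (adjusted p = 0.000306). For the difference with against without cytokines at day 6 they were Rarg at -4.93 ± 0.30 (adjusted p = 2.15e-08), Cyp26a1 at -3.98 ± 0.84 (adjusted p = 0.00147), Cyp26b1 at 8.59 ± 1.33 (adjusted p = 0.00012), Crabp1 at 4.30 ± 0.58 (adjusted p = 3.19e-05), Crabp2 at 6.99 ± 0.52 (adjusted p = 1.32e-07) and Aldh1a2 at -4.63 ± 1.05 (adjusted p = 0.00237). Leaving out a library moved Rarg in the change to day 2 to between 0.72 and 1.17. The Rarg call was lost in most of those fits, as given above. In the day 6 contrast, leaving out a library moved Cyp26a1 to between -2.99 and -4.90. Aldh1a2 moved to -7.19 without WT day 6 without cytokines replicate 1, and Crabp2 to 6.22 without TKO day 6 with cytokines replicate 1. In the day 6 contrast the sort of the WT cells with cytokines and the genotype cannot be told apart.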

How the results depend on the processing

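Of 56 called log2 fold changes of the 8 genes, none reversed under any alternative, 39 stayed past the threshold without each library in turn and 37 under all alternatives. DESeq2, RLE factors and the replicate block kept all 56; library size scaling alone lost 3 (Rarg, WT day 6 with cytokines against EpiLC; Rarb, TKO against WT at day 2, -1.28, adjusted p = 0.0887; Dhrs3, TKO against WT at day 6 with cytokines, 1.33, 0.0553), no filter lost 1 and fitting only the libraries compared lost 3. Library size scaling moved the median of all genes by up to 0.57 on the log2 scale. Only the larger changes in the counts of called genes among the 8 are listed next, so an unlisted comparison is not shown to be unchanged. In WT day 2 without cytokines against EpiLC, for instance, the called changes of Rarg (-1.46) and Dhrs3 (1.72) lay within the log2 limit of 2. Asking also for a log2 change above 2 gave 0 for TKO against WT EpiLC, 3 for WT day 6 with cytokines against EpiLC, 1 for TKO against WT at day 6 with cytokines and 0 for TKO day 6 with against without cytokines. For TKO day 2 with cytokines against EpiLC, DESeq2 and no filter gave 2 each. For TKO day 6 against day 2 without cytokines, DESeq2 and no filter gave 1 and only the libraries compared 2. For TKO day 2 with against without cytokines, DESeq2, no filter, library size scaling and only the libraries compared gave 1 each, and for TKO day 6 with against without cytokines these 4 and the replicate block gave 2. Leaving out a library gave 0 to 1 for TKO against WT EpiLC, 2 to 5 for WT day 6 with cytokines against EpiLC, 1 to 3 for TKO against WT at day 6 with cytokines, 1 for TKO day 2 without cytokines against EpiLC, 0 to 1 with cytokines, 0 for TKO day 6 against day 2 with cytokines and 0 to 1 for TKO day 6 with against without cytokines; the cause was not tested. Libraries with the same number share only a number (correlation of deviations -0.156 to 0.182 over 36 pairs of groups, above 0.1 in 7); the block added Crabp2 in TKO day 6 with against without cytokines (-1.18, adjusted p = 0.0438) and Dhrs3 in the WT comparison (1.18, 0.0367). With 2 libraries per group, a difference that missed the threshold is not shown to be absent.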
